A study of Homo sapiens with 36 samples.

Results

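The libraries described here are the 8 CUT&Tag libraries made with an antibody against the HA epitope tag in GATA2-low HUDEP-2 cells that carried either HA-GATA2 (4 libraries) or an empty vector (4 libraries), of 36 libraries in the series, 28 of which came with a peak list. HUDEP-2 is an immortalized human erythroid progenitor line. The members were chosen from the library titles. Both groups carry the same labelled genotype, GATA2+/-, were infected with lentivirus and sorted for GFP, and were grown with Epo, SCF, doxycycline and dexamethasone, so the single labelled difference is the insert of the expression plasmid. For setting beside them, 4 libraries each came from HA-T354M cells with the HA antibody (the same tagged protein with 1 changed residue), from the same HA-GATA2 cells with a GATA2 antibody, from GATA2-low empty-vector cells with the GATA2 antibody, and from wild-type empty-vector cells with the GATA2 antibody. No label says whether the libraries of a group came from separate cultures, so the tests measure the spread between libraries, which may be technical.

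GATA2, a transcription factor with zinc fingers, is active in blood stem cells and early progenitors. GATA factors bind short DNA motifs with the core GATA, commonly in enhancers far from genes as well as in promoters, and work with TAL1, LYL1, the adaptor LMO2 and the FOG cofactors ZFPM1 and ZFPM2. In the CUT&Tag assay a transposase is brought to chromatin by an antibody, and the fragments it cuts out are sequenced. An antibody against a tag that is absent from the cells gives the background of the assay, which is what the empty-vector libraries measure.

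Promoters where tagged GATA2 sat in every library carried a GATA motif more often than promoters at large, and 7 of them are shown here because each holds the motif in the window of a measured summit. Each is 250 bases before to 50 after a RefSeq transcription start (GRCh38.p14), read 5′ to 3′ on the strand of the gene, with the motif AGATAA, or TTATCT where it lies on the other strand, in capitals. RHEX (chr1:206083345-206083644, plus strand) encodes an adaptor of Epo receptor signalling, SPINK4 (chr9:33239917-33240216, plus) a serine protease inhibitor, GYPB (chr4:144019331-144019630, minus) glycophorin B, EPB42 (chr15:43220969-43221268, minus) the red cell membrane protein 4.2 and TNFRSF19 (chr13:23570162-23570461, plus) a receptor of the TNF receptor superfamily. TAL1 (chr1:47232286-47232585, minus) and LYL1 (chr19:13102809-13103108, minus) encode the GATA partner proteins named above. Both were added after their values were seen.
RHEX: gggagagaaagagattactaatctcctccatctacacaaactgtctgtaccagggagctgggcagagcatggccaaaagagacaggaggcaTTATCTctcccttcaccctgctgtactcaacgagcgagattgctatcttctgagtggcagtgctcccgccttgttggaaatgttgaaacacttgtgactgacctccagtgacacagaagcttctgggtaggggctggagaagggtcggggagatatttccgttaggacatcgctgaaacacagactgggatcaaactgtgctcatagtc
SPINK4: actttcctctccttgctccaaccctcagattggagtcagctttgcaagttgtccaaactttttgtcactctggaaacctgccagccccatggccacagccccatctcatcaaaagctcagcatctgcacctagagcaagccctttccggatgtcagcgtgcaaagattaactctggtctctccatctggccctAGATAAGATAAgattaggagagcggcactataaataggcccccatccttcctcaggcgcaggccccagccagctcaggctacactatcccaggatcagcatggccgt
GYPB: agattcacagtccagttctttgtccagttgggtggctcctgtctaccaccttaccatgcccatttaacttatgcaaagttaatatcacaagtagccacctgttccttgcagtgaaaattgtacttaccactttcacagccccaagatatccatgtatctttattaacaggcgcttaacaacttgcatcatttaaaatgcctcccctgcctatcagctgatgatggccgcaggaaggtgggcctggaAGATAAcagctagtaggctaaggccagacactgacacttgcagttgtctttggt
EPB42: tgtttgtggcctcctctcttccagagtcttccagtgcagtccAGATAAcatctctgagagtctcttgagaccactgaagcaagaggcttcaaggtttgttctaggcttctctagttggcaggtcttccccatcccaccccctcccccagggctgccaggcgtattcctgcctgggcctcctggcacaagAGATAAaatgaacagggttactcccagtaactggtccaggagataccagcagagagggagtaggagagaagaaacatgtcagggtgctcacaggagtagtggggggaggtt
TNFRSF19: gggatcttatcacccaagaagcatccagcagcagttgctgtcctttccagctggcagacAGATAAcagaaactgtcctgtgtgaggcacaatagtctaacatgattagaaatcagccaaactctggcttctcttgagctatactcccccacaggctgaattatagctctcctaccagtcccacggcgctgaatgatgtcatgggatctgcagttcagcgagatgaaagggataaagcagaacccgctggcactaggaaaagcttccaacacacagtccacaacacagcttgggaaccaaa
TAL1: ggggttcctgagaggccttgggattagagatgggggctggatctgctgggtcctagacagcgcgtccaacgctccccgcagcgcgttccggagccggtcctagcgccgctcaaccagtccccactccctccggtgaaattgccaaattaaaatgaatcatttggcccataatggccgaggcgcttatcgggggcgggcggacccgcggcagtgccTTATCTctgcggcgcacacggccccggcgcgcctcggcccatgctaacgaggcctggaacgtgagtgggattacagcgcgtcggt
LYL1: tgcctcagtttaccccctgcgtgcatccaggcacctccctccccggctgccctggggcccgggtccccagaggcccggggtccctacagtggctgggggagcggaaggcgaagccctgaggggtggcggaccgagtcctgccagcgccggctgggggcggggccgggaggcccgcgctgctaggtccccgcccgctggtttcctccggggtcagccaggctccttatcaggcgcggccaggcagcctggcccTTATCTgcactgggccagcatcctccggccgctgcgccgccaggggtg

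Tagged GATA2 gave long peak lists, and the same antibody without the tag gave almost none. The HA-GATA2 libraries held 4073, 4942, 6065 and 1912 peaks (4248 ± 1758, SD, n = 4), against 6, 5, 1 and 4 peaks in the empty-vector libraries (4 ± 2.16, SD, n = 4). Every HA-GATA2 library lay above every empty-vector library, a ratio of geometric means of the number plus 1 of 864 (exact two-sided permutation test on log2 of the number plus 1, p = 0.0286, the smallest 70 splits allow). Replicate 4 of HA-GATA2 stood apart with the shortest list, the lowest median fold (9.74, against 10.4, 10.9 and 11.2 in replicates 1 to 3) and the narrowest median peak (334 bp, against 375, 375 and 368 bp). The numbers of sites and called genes, and the share of promoters with AGATAA, are therefore also given without it where they change. Positions, densities and shares at the sites found in all 4 lists were not recomputed without it.

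**Figure D1:**
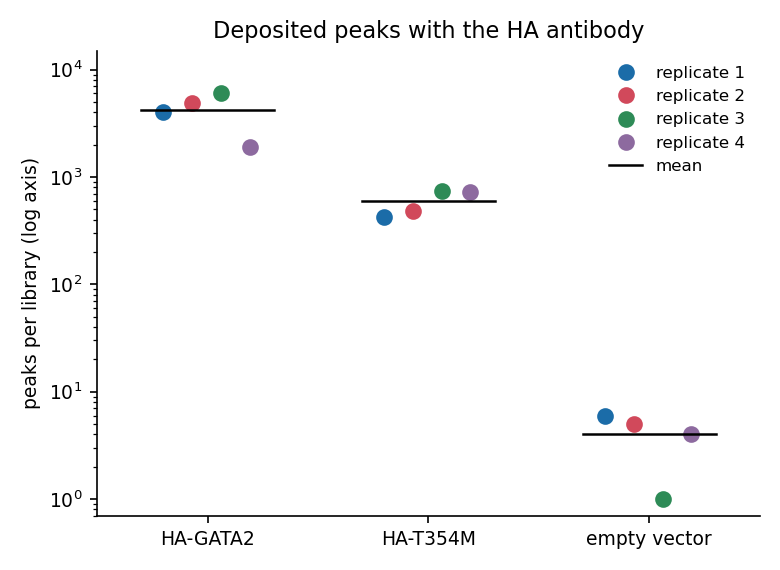
Number of deposited peaks on chromosomes 1 to 22 and X in each HA antibody library (log axis), for HA-GATA2, HA-T354M and empty vector, with 1 point per library and a line at the group mean. The HA-GATA2 libraries lie between 1912 and 6065 peaks and the empty-vector libraries between 1 and 6.

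Sequencing depth is not given in the files, but each peak's fragment count was recovered from its deposited fold and p. Peaks held a median of 25 to 27 fragments in the HA-GATA2 libraries. At a background site on chromosome 17 (chr17:19063363-19063797, 12235 bp from GRAP) the HA-GATA2 libraries held 47, 50, 45 and 34 fragments, against 34, 22 and 32 fragments in empty-vector replicates 1, 2 and 4 and no peak in replicate 3. At the histone gene site near H2AC20, HA-GATA2 replicates 1 to 3 held 35, 24 and 32 fragments and replicate 4 no peak, against 22, 27, 18 and 18 fragments in the empty-vector libraries. At the other 3 sites with a peak in both groups the empty-vector counts were lower than most of the HA-GATA2 counts. The site at H2BC11 held 92, 79 and 103 fragments in HA-GATA2 replicates 1 to 3, against 51 in empty-vector replicate 1. That at H2AC12 held 79, 33, 110 and 57 in HA-GATA2 replicates 1 to 4, against 41 and 38 in empty-vector replicates 1 and 2. That at H2BC14 held 71, 62 and 72 in HA-GATA2 replicates 1 to 3, against 35 and 34 in empty-vector replicates 1 and 4. At H2AC20 the local background at the summit was 3.20 to 3.74 in HA-GATA2 replicates 1 to 3, against 1.47 to 1.86 in the empty-vector libraries. The part of depth in the number of peaks was not tested.

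The 8 libraries had 7007 merged sites, 7004 of them with an HA-GATA2 peak. At 1756 sites all 4 HA-GATA2 libraries and none of the 4 empty-vector libraries had a peak, which is 25.1% of all sites, and the reverse pattern was found at 0 sites. The shortest empty-vector list held 1 peak, so the reverse pattern could hold at 1 site at most and its absence is no support. Each of the 1756 had p = 0.0286 by Fisher's exact test on libraries, the smallest possible with 4 against 4. Of 1758 sites in all 4 HA-GATA2 libraries, 1756 reached it, so this p follows from the short empty-vector lists. None passed after Benjamini-Hochberg adjustment of Fisher's exact test over all 7007 sites (adjusted p = 0.114). Without HA-GATA2 replicate 4, the sites in every remaining HA-GATA2 library and no empty-vector library numbered 3319. Of the sites of replicate 4, 92.6% were in all 4 HA-GATA2 libraries, and it lacked 1566 sites that the other 3 held. Replicate 3, with the longest list, had 1455 sites found in no other library, against 14 in replicate 4.

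Sites found in more libraries also had a higher percentile of fold, averaged over the HA-GATA2 libraries that held the site. The classes draw on lists of unlike length, and 1455 of the 2270 sites of 1 library came from replicate 3. The mean percentile of the deposited fold within a library's own list, where 100 is the strongest peak, had a median of 24.6 at the 2270 sites of 1 library, 34.7 at the 1316 sites of 2, 45.6 at the 1660 sites of 3 and 69.6 at the 1758 sites of 4. The 4 of 4 sites, as the 1756 are called from here on, had a median width of 680.5 bp (241 to 2584 bp). They were scattered, with a median gap of 692 kb between neighbours, and 109 of 1733 gaps were at most 10 kb. Per megabase of the span of annotated genes, chromosome 8 held 1.01 sites (147), chromosome 6 held 0.957 (163) and the X chromosome 0.186 (29), against 0.581 over all chromosomes. Chromosome copy number in these cells was not measured here, and its part in these densities was not tested.

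The sites of highest fold lay away from listed transcription starts. None of the 12 strongest by fold was in or near a gene of the lists described further on. Rank was the mean percentile of the authors' fold in the 4 HA-GATA2 lists. The first was chr4:154927257-154928536, 98720 bp from RBM46, with folds of 64.1, 69.7, 65.2 and 42.5 and 89, 98, 89 and 61 fragments in replicates 1 to 4. The second was chrX:134257991-134258904, 11541 bp from CCDC160, with folds of 57.0, 69.0, 73.2 and 38.5. The third was chr14:66471341-66472132, 14601 bp upstream of CCDC196, with folds of 69.8, 75.3, 85.5 and 34.9. Replicate 4 had the lowest fold at all 3, and at 1517 of the 1756 sites.

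**Figure D2:**
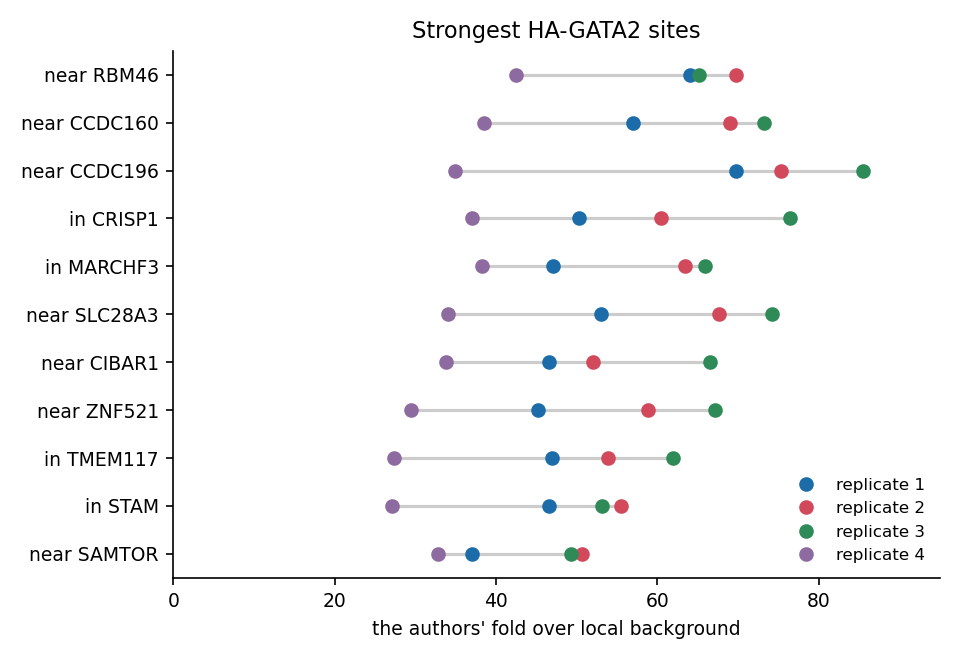
The authors' fold over local background at 11 of the 12 strongest 4 of 4 sites, with 1 point per HA-GATA2 library and sites named by the gene they lie in or near. Replicate 4 is the lowest point at all 11 sites. No empty-vector library had a peak at any of them.

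Of the other strongest sites, 8 are described here, which lay inside CRISP1, MARCHF3, TMEM117 and STAM, and outside genes nearest to SLC28A3, CIBAR1, ZNF521 and SAMTOR. The CIBAR1 site was 198359 bp from that gene and the ZNF521 site 153364 bp. The site near CIBAR1 had the most fragments of these, with 196, 226, 268 and 157 in replicates 1 to 4. All 11 sites described also had a peak in 4 of 4 HA-T354M libraries with the HA antibody, in 4 of 4 HA-GATA2 and 4 of 4 wild-type libraries with the GATA2 antibody. In GATA2-low empty-vector cells the GATA2 antibody gave a peak at the SLC28A3 site in 2 of 4 libraries and at the SAMTOR site in 0 of 4. The 3 widest 4 of 4 sites lay inside ZFPM1 (2584 bp), 25077 bp from PDE9A (2253 bp) and 15277 bp upstream of SIGLEC6 (2108 bp).

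The GATA partner genes ZFPM1 and ZFPM2 each held several sites. ZFPM1, which encodes FOG1, had 4 sites of the 4 of 4 class in its 85.3 kb body. The strongest, chr16:88491194-88492336, lay 38506 bp downstream of the start with folds of 36.6, 36.2, 42.3 and 24.5, and also had a peak in 4 of 4 HA-T354M libraries. The widest, chr16:88454468-88457051, lay 2817 bp downstream with folds of 14.5, 29.2, 20.1 and 14.2. The gene table gives no exons, so no site is called exonic or intronic here.

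ZFPM2, which encodes FOG2, had 5 such sites in its 486 kb body on chromosome 8, with the strongest at chr8:105520079-105521296. That site held 240, 263, 292 and 178 fragments in replicates 1 to 4. It had a peak in 4 of 4 HA-T354M libraries with the HA antibody and in 4 of 4 GATA2-low empty-vector libraries with the GATA2 antibody. A second ZFPM2 site, chr8:105450073-105450968, with folds of 32.6, 34.6, 49.7 and 18.7, had a GATA2 antibody peak in 4 of 4 wild-type libraries, against 0 of 4 GATA2-low empty-vector libraries. Genes with most 4 of 4 sites in the body were MTSS1 with 6, ZFPM2 with 5, and AHI1, MBNL2, NSMCE2, STON2, THRB and ZFPM1 with 4 each. These genes are long (85.3 to 486 kb), and 677 genes had 1 such site.

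TAL1, a helix-loop-helix factor of blood progenitors, had 2 sites of the 4 of 4 class. The first covered the start (chr1:47231988-47232908), with its summit 4 bp downstream, folds of 9.91, 11.4, 11.9 and 6.01 and 46, 56, 54 and 31 fragments. In its promoter, printed above, the motif lay 35 bases upstream of the start. The second was 7061 bp upstream (chr1:47238996-47239861), with folds of 8.01, 17.2, 15.1 and 8.43. The upstream site had a GATA2 antibody peak in 4 of 4 wild-type libraries, against 0 of 4 GATA2-low empty-vector libraries, and the start site had one in 4 of 4 libraries of each.

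LYL1, a close relative of TAL1, had 1 such site with its summit 130 bp upstream of the start and 112, 128, 122 and 60 fragments. Its folds were low, at 9.85, 10.6, 9.19 and 4.65. LMO2, which bridges GATA and TAL1 proteins, had a site inside the gene (chr11:33885054-33885707, folds of 12.7, 12.8, 13.8 and 6.73) and another 2411 bp outside it (chr11:33893700-33894886, folds of 18.01, 12.7, 20.3 and 11.6). Neither LMO2 site had a peak in any HA-T354M library.

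GATA1, the GATA factor of erythroid maturation, had 2 sites of the 4 of 4 class. The site 585 bp upstream of its start (chrX:48785664-48786626) had folds of 16.5, 13.8, 13.8 and 8.97 and a GATA2 antibody peak in 4 of 4 libraries of HA-GATA2, wild-type and GATA2-low empty-vector cells. The other, 1330 bp downstream of the start (chrX:48787716-48788108), had folds of 9.69, 17.1, 13.3 and 8.54 from 13, 24, 18 and 12 fragments. The GATA2 antibody gave a peak there in all 4 HA-GATA2 libraries, against none of the wild-type or GATA2-low empty-vector libraries.

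KLF1, a zinc finger activator of globin and red cell genes, had 1 site of the 4 of 4 class. That site lay 226 bp upstream of the KLF1 start (chr19:12886103-12887949), with folds of 13.1, 14.8, 17.3 and 7.21. ALAS2, the first enzyme of heme synthesis in erythroid cells, had 1 such site, inside the gene (chrX:55014795-55015685). Its folds were 11.6, 15.4, 15.8 and 8.45. HDC, which makes histamine, had the strongest site of these 3 genes (chr15:50260172-50261762, 4654 bp downstream of the start), with folds of 28.4, 37.1, 40.4 and 17.3 in replicates 1 to 4. MYB, a progenitor factor, had 1 such site 10623 bp downstream of its start with folds of 10.5, 11.5, 14.1 and 10.99. GFI1B, a transcriptional repressor that acts in erythroid cells, had 1 such site, 5953 bp beyond the gene. Its folds were 7.67, 10.5, 11.2 and 4.75. KIT, the receptor of SCF, had no 4 of 4 site, and a peak in its body in replicate 3 alone. Replicate 4 had the lowest fold at each 4 of 4 site named for TAL1 start, LYL1, LMO2, GATA1, KLF1, ALAS2, HDC and GFI1B. Sites of any HA-GATA2 library within 10 kb numbered 4 each for GATA1 and GFI1B and 3 for KLF1. They numbered 2 each for ALAS2, HDC and MYB. Replicates 1 to 3, but not 4, had a peak 3630 bp upstream of GATA1 and 7482 bp upstream of MYB. The same held 6295 bp downstream of the GFI1B start and 2745 bp downstream of the ALAS2 start.

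A gene was called when each HA-GATA2 library, and no empty-vector library, had a summit inside the gene or at most 10 kb from it. This held for 1148 of 19970 protein-coding genes, 5.75%, and for 2141 (10.7%) without HA-GATA2 replicate 4. Called genes were longer, with a median of 71.7 kb, against 24.2 kb over all genes, and the part of length in the counts below was not tested. The mean percentile of a gene takes the strongest summit inside it or at most 10 kb away in each HA-GATA2 library. It can thus exceed that of a given site or of the promoter, and the part of length in it was not tested.

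Among GATA factor partners, 11 of 21 genes were called (14 without replicate 4), with a median gene length of 102 kb. Besides the genes above they included RUNX1T1, a corepressor, at a mean percentile of 82.6, and TCF12, a helix-loop-helix partner of TAL1, at 77.9. Among red cell membrane and blood group genes, 15 of 30 were called (19 without replicate 4), with a median length of 34.1 kb. GYPB and GYPE, paralogous glycophorin genes, were at mean percentiles of 94.3 and 94.2, EPB42 at 92.8, RHCE of the Rh blood group at 90.9 and the water channel AQP1 at 85.5. GYPB and GYPE are near-identical copies, so reads could have been placed on either and both values are uncertain. The same holds for RHCE and its close paralog.

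Globin and heme synthesis genes were called in 7 of 26 cases (11 without replicate 4). Among them were the heme enzymes CPOX, UROS, FECH and ALAS2, at mean percentiles of 87.9, 76.5, 68.8 and 62.9. Of other blood transcription factors, 7 of 33 were called (13 without replicate 4), led by FOXO3 at 95.2, CEBPE at 60.7 and KLF1 at 60.2. Of iron genes, 3 of 18 were called (6 without replicate 4). They were NCOA4, the receptor for ferritin breakdown, at 59.8, the ferritin heavy chain FTH1 at 59.3 and the mitochondrial iron carrier SLC25A37 at 39.2. The transferrin receptor TFRC had a peak in replicates 1 to 3 and none in replicate 4.

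Of mast cell, basophil and eosinophil genes, 3 of 29 were called (10 without replicate 4), namely HDC at 95.7, the mast cell factor MITF at 94.5 and PRG2, the eosinophil major basic protein, at 70.5. Of megakaryocyte and platelet genes 0 of 26 were called, with RAB27B and ANGPT1 having a peak in 2 libraries each. Of lymphocyte genes 0 of 24 were called (2 without replicate 4, RAG1 and CD4). The counts were 1 of 26 for neutrophil and monocyte genes (LTF), 1 of 26 for genes of unrelated tissues (CDH1; 2 without replicate 4) and 1 of 28 for housekeeping genes (POLR2A; 3 without replicate 4). Cytokine receptors and signalling genes gave 5 of 36 called (9 without replicate 4), namely the activin receptor ACVR1B at 87.4, the IL-33 receptor IL1RL1 at 83.8, the BMP receptor BMPR2 at 74.2, and the kinases LYN at 45.5 and PIM1 at 31.0. Chromatin cofactors gave 4 of 29 (5 without replicate 4), among them GATAD2B, RBBP4 and CHD4. Autophagy genes gave 3 of 30 (7 without replicate 4), namely ATG14, ATG13 and ATG2A. Carbonic anhydrases and gas transport genes gave 1 of 9 (CA1, or 4 genes without replicate 4). The lists were described by their counts and not tested.

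**Figure D3:**
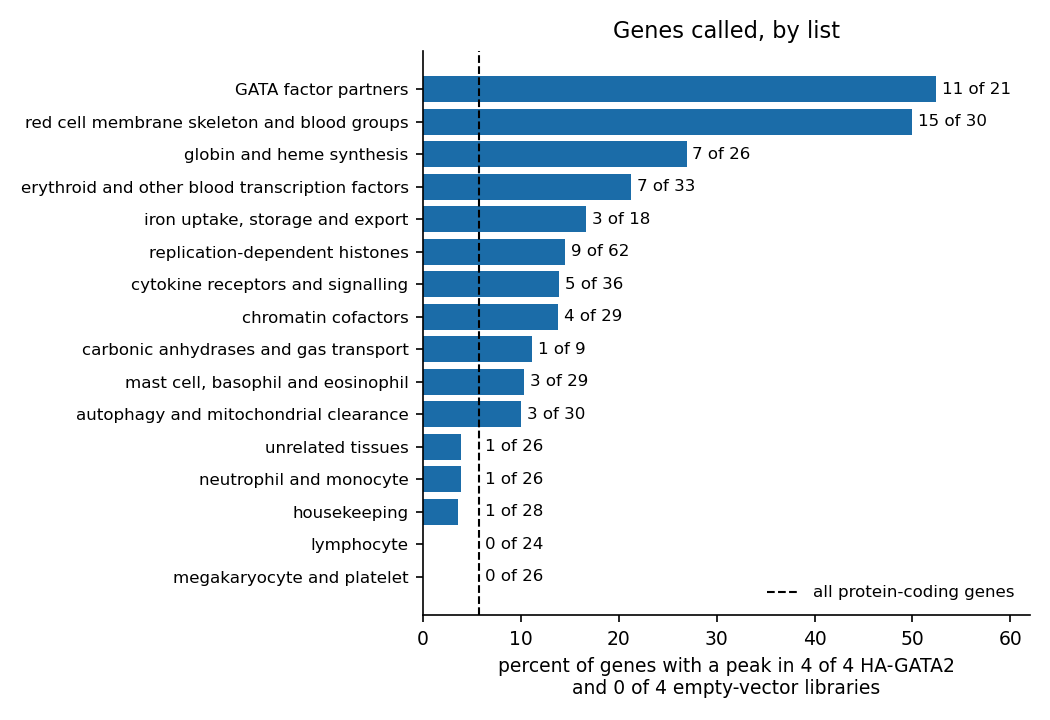
Percent of the genes of each list that were called (a summit in the gene or at most 10 kb away in all 4 HA-GATA2 libraries and no empty-vector library), with the number called of the number measured at each bar. The dashed line marks 5.75%, the share of all protein-coding genes. GATA factor partners (11 of 21) and red cell membrane and blood group genes (15 of 30) have the longest bars.

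Replication-dependent histone genes, short genes in clusters, differed from the other lists in having background peaks. Of 62, 52 had a peak in at least 1 HA-GATA2 library and 14 had one in an empty-vector library, the only genes of the 16 lists that did. By the rule those 14 could not be called, and 9 of the 62 were (24 without replicate 4). H2AC15, H2BC15 and H4C12 shared a mean percentile of 74.9 and H1-5 and H2AC16 one of 42.5, so neighbouring genes here count the same peaks. HA-GATA2 peaks lay at 43, 47, 50 and 15 histone genes in replicates 1 to 4.

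The empty-vector libraries had a peak at 8 sites in all, 5 of them shared with HA-GATA2. Besides the chromosome 17 site above, the shared sites were the starts of histone genes. The one between H2BC21 and H2AC20 (chr1:149886464-149887145) was the single site with a peak in every empty-vector library, and HA-GATA2 had it in 3 of 4. The others were at H2BC11 and H2AC11 (chr6:27132461-27133149; HA-GATA2 in 3 of 4 and empty vector in 1 of 4 libraries), at H2BC12 and H2AC12 (chr6:27145813-27147508; HA-GATA2 in 4 and empty vector in 2) and at H2BC14 and H2AC14 (chr6:27814570-27815483; HA-GATA2 in 3 and empty vector in 2). All 5 shared sites had a peak in 4 of 4 HA-T354M libraries. The 3 sites with an empty-vector peak alone were chr1:143195183-143195660 and chr1:143254078-143254505, which were 706964 and 648094 bp from the nearest coding gene (H3-7), and chr3:93470521-93470697, 402442 bp from PROS1, where 665 and 620 fragments stood on a local background of 360 and 393.

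Sites of high fold over local background lay away from listed transcription starts. Strength in this paragraph is that fold, which is lower where the local background is high. At the LYL1 start 112, 128, 122 and 60 fragments on a background of 10.5 to 12.4 gave a mean percentile of 31.5. At the RHEX start 72, 77, 90 and 46 fragments on 0.761 to 0.840 gave 99.3. The part of local background in the shares by strength was not tested. Of the 1609 sites of the 4 of 4 class on chromosomes with listed starts (all but chromosome 8), 71 (4.41%) were within 1000 bp of a protein-coding start, 815 (50.7%) elsewhere inside a gene and 723 (44.9%) outside genes. Their median distance from a listed start was 40.4 kb, and 432 (26.8%) were more than 100 kb away. Starts were listed for 15811 of the 19256 protein-coding genes on these chromosomes, so true distances can be shorter and true shares at starts higher. The LMO2 site 2411 bp outside that gene was measured from the start of CAPRIN1. At sites of 1 library, 17.05% were at a start. Ranked by the authors' fold within each library, and cut into 5 equal parts, the strongest part had 2.25 ± 0.275% of its peaks at starts and the weakest part 20.3 ± 7.52% (SD, n = 4). The strongest part had the lower share in 4 of 4 libraries. Peaks more than 100 kb from a start made up 31.1 ± 1.46% of the strongest part and 16.1 ± 2.82% of the weakest. Of the 100 strongest 4 of 4 sites, 2 were at a start.

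**Figure D4:**
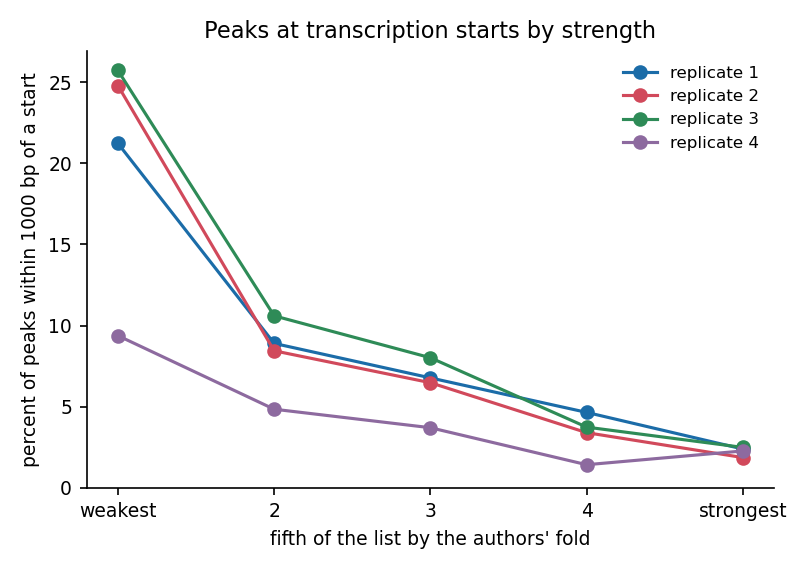
Percent of HA-GATA2 peaks within 1000 bp of a listed protein-coding transcription start, in 5 equal parts of each library's list ranked by the authors' fold, with 1 line per library. The share is 1.86 to 2.49% in the strongest part and 9.38 to 25.7% in the weakest.

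Over whole lists, 8.79, 8.99, 10.1 and 4.33% of peaks were at a start in the HA-GATA2 libraries with the HA antibody (8.06 ± 2.55%), against 9.32, 11.1, 11.6 and 9.19% with the GATA2 antibody in the same cells (10.3 ± 1.23%, SD, n = 4 each). The groups overlapped, and the difference of -2.25 percentage points did not pass an exact permutation test (p = 0.143, Benjamini-Hochberg adjusted p = 0.214 over 6 comparisons of position). With every list at the length of the shortest, the difference turned to 0.859 (adjusted exact permutation p = 0.0857). Set against HA-T354M (10.6 ± 1.45%, SD, n = 4), the difference for HA-GATA2 was -2.50 points (exact permutation p = 0.114, adjusted p = 0.214). At equal list length it was -3.87 points (adjusted exact permutation p = 0.0343). The cut kept the strongest peaks by q. It left a part of the HA-GATA2 lists (1912 to 6065 peaks) and more of the HA-T354M lists (426 to 744 peaks). Peaks at starts were rarer among peaks of high fold, and the GATA2 antibody lists in this adjustment were left uncut. No conclusion is drawn from the -3.87 points. Peaks outside genes made up 43.0 ± 1.49% with the HA antibody and 39.9 ± 0.735% with the GATA2 antibody in HA-GATA2 cells (exact permutation p = 0.0286, adjusted p = 0.171, n = 4 each). The empty-vector libraries had 4 of 6, 2 of 5, 1 of 1 and 2 of 4 peaks at a start.

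Nearly all HA-GATA2 peaks with the HA antibody overlapped a GATA2 antibody peak. A peak counted as overlapped when any library of the other group had a peak there. Of the HA-GATA2 peaks with the HA antibody, 96.8 ± 2.13% overlapped a GATA2 antibody peak of the same cells (n = 4 libraries, SD), while 58.7 ± 10.1% of those GATA2 antibody peaks overlapped an HA peak. With the GATA2 antibody, wild-type cells had a peak at 84.6 ± 6.28% and GATA2-low empty-vector cells at 58.5 ± 10.9% of the HA-GATA2 peaks. The lists differ in length (a mean of 10395 GATA2 antibody peaks in HA-GATA2, 7625 in wild-type and 2430 in GATA2-low empty-vector cells), which bears on each share. The overlap with empty-vector HA peaks was 0.103%. By site, 406 of the 2270 sites of 1 HA-GATA2 library (17.9%) had no GATA2 antibody peak in any library of HA-GATA2 cells. At the 1758 sites of 4 libraries this held for 3.

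At the 4 of 4 sites, GATA2-low empty-vector cells had no GATA2 antibody peak in any library at 398 of 1756 (22.7%) and a peak in all 4 at 862 (49.1%). Wild-type cells had a peak in all 4 libraries at 1510 (86.0%). At 181 sites all 4 wild-type libraries and none of the GATA2-low empty-vector libraries had one. At 91 sites (5.18%) neither wild-type nor GATA2-low empty-vector cells had a GATA2 antibody peak. The strongest of these was 82191 bp from ZDHHC20 (chr13:21289779-21290859), with folds of 34.2, 38.0, 45.6 and 22.6, and it was the only one of the 91 with a peak in 4 of 4 HA-T354M libraries. Others lay inside DYM (folds of 33.1, 31.0, 39.8 and 23.4), DNAAF10 (23.6, 44.9, 35.6 and 20.9) and CXADR (25.1, 32.0, 31.3 and 14.6). The GATA2 antibody gave a peak at these 4 sites in 4 of 4 HA-GATA2 libraries.

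Nearly all HA-T354M peaks lay on HA-GATA2 peaks. Of the HA-T354M peaks with the HA antibody (595 ± 166 per library, SD, n = 4), 98.2 ± 0.773% overlapped a peak of any HA-GATA2 library. At 944 of the 1756 sites (53.8%) no HA-T354M library had a peak, and at 229 (13.04%) all 4 did. The share with any HA-T354M peak was 65.4% of the 708 sites above the 75th percentile of strength and 28.2% of the 71 sites up to the 25th.

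AGATAA on either strand was present in 10.3% of all 34961 promoters, and the share grew with the number of HA-GATA2 libraries that had a summit in the promoter. It was 10.2% with none, 10.5% with 1, 15.8% with 2, 25.9% with 3 and 63.4% with 4 libraries (26 of 41 promoters of 36 genes, 95% Wilson interval 48.1 to 76.4%; counting error only, and some windows overlap). Without HA-GATA2 replicate 4, the share was 38.8% of the 116 promoters with a summit in every remaining library. The longer AGATAAG, which contains AGATAA, was in 31.7% of the 41 and 2.67% of all promoters. The same letters in reverse order, AATAGA, were in 7.32% of the 41 and 9.28% of all. CCACACCC, a motif of Krüppel-like factors, was in 14.6% (Wilson interval 6.88 to 28.4%) and 3.29%. TGAGTCA, the AP-1 and NF-E2 motif, was in 7.32% and 4.92%. The E-box and GATA composite motif, which joins a helix-loop-helix site to GATA and shares its GATA with the others, was in 2 of the 41 (4.88%) and 0.589% of all.

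**Figure D5:**
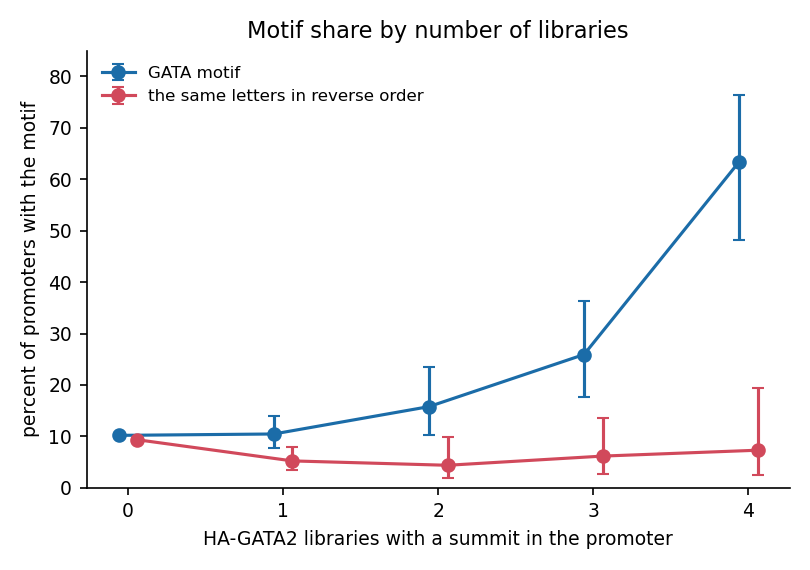
Percent of promoters (250 bases before to 50 after a start) that hold the GATA motif, or its letters in reverse order, against the number of HA-GATA2 libraries with a peak summit there. Bars are 95% Wilson intervals. The GATA motif share is 10.2% with no library and 63.4% with 4 (38.8% for all 3 when replicate 4 is left out). The reversed letters are at 9.36% with no library, then 5.24, 4.39, 6.17 and 7.32% with 1, 2, 3 and 4 libraries.

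In the 26 promoters with the motif the nearest copy lay a median of 40.5 bp from the summit, and within 50 bp in 14. In RHEX the motif lay 34 bp from the summit, on the other strand, and folds were 40.4, 42.4, 51.7 and 26.6. In SPINK4, whose promoter holds 2 overlapping copies, it lay 34 bp away and folds were 28.0, 34.4, 40.5 and 18.8. In TNFRSF19 it lay 25 bp away (folds of 17.3, 17.7, 20.2 and 10.3) and in EPB42 58 bp (folds of 23.7, 24.5, 34.7 and 16.2). In GYPB and GYPE it lay 145 bp away. Empty-vector summits fell in 2 of the 41 promoters, both windows of H2BC12, a histone gene without the motif. The 15 promoters without AGATAA included those of RHAG, a Rh-associated membrane protein, and HBS1L, both named after their values were seen.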

How the data were processed

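The authors deposited 1 peak list per library, not on pooled libraries, in a narrowPeak layout of 10 columns, with coordinates on hg38. The submitters' processing notes name MACS2 2.2.7.1, Bowtie2 2.2.5 and cutadapt 3.3, and also FastQC and deepTools 3.5.3, with no settings given in the sources used here. The deposited fold of each peak is a linear ratio to local background, the deposited p and q are -log10 values, and the deposited score is the -log10 q times 10. They served to order peaks inside a list, to filter them and, solving fold and p together under a Poisson model, to recover fragments at the summit.

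The 8 HA lists held 17092 deposited peaks, of which 17008 on chromosomes 1 to 22 and X were kept. Peaks sharing at least 1 bp were merged into sites. Starts and promoters are RefSeq (GRCh38.p14); the tables used hold starts for 15811 of 19970 protein-coding genes and none on chromosome 8. Tests were exact permutations of libraries and Fisher's exact test with Benjamini-Hochberg adjustment, in Python 3.11.15 with SciPy 1.17.1, and were tested on simulated data.

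Named were the 12 strongest 4 of 4 sites, 12 genes of GATA2 biology, up to 5 genes per list, the 8 genes with most sites, all empty-vector sites, up to 6 promoters and the 3 widest sites; some items that these rules name are not reported here. Members, lists and rules were chosen with earlier results of these data known. The IgG control libraries were not used; 2 of them, titled as IgG control, carry an anti-HA antibody label.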

Additional observations from a re-analysis of the deposited data

Results flagged for a closer look

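Within groups of 4 libraries, 72 sets of values were examined and 4 had 1 library far from the other 3 by Dixon's ratio. The threshold flags about 1 set in 20 by chance. The sets share libraries and peaks, so the count cannot be judged against that share. Replicate 4 of HA-GATA2 with the HA antibody accounted for 3 of the 4. Its median peak width was 334 bp, against 368 to 375 bp in the other 3 libraries. Peaks outside genes made up 45.2% of its list, against 41.9 to 42.4% in the others. It had a peak at 0 of the lymphocyte genes, against 2 in each of the others. With the GATA2 antibody in HA-GATA2 cells, replicate 1 had a peak at 98.9% of the 4 of 4 sites, against 99.8 to 99.9% in the other 3 libraries.

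Peaks on the mitochondrial sequence, left out of every comparison, averaged 5.75 in the HA-GATA2 libraries (6, 6, 6 and 5), against 6, 1, 0 and 0 in the empty-vector libraries. HA-T354M libraries with the HA antibody had 6 each, and HA-GATA2 libraries with the GATA2 antibody had 0 each. The part of list length or depth in these numbers was not tested.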

How the results depend on the processing

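The difference in log2 of the number of HA peaks between HA-GATA2 and empty vector was 9.75, and 9.36 to 10.1 with any 1 library left out (exact permutation p = 0.0286 throughout). As same-numbered pairs (replicate block) it was again 9.75, with an exact sign-flip permutation p = 0.125, the smallest that 4 pairs allow. The block left both differences at starts short of the threshold (-2.25 and -2.50 points, adjusted sign-flip permutation p = 0.188 each). No label says that the replicate numbers pair the libraries, so the numbers were not taken as pairs. Same-numbered HA and GATA2 antibody libraries of HA-GATA2 cells correlated by 0.0877, -0.00606, 0.0857 and -0.00839 in their deviations. These values cannot show whether HA-GATA2 and empty-vector libraries pair. The 1756 sites of 4 HA-GATA2 and 0 empty-vector libraries were 1756 to 3319 with 1 library left out, where 3319 was without HA-GATA2 replicate 4, and 1128 with peaks of -log10 q of at least 15. The number past Fisher's exact test after adjustment, 0 over all sites, was 1756 over sites in exactly 4 of 8 libraries, which sites reach almost only through the HA-GATA2 libraries, so that count is no support. Called genes were 1148 to 2141 with 1 library left out, 730 with the stricter q, 808 in the body alone and 2341 within 50 kb. At equal list length the difference at starts between the HA and GATA2 antibodies reversed to 0.859 points (adjusted exact permutation p = 0.0857). That between HA-GATA2 and HA-T354M grew to -3.87 points (adjusted exact permutation p = 0.0343). Equal length kept only the strongest peaks of the longer lists, so no conclusion is drawn from either value. With 1 library left out, these differences over whole lists were -2.94 to -1.01 and -3.19 to -1.25 points. The share of promoters with the motif was 38.8% (of 116, without HA-GATA2 replicate 4) to 64.3% with 1 HA-GATA2 library left out, 87.5% (of 16) with the stricter q, 87.8% for GATA and 31.7% for AGATAAG. The overlap with GATA2 antibody peaks of the same cells was 95.9 to 98.4% under every alternative. The causes of these shifts were not tested. Leaving out an empty-vector library gives no other value for the motif and antibody overlaps, which do not use those libraries. Counts by list without HA-GATA2 replicate 4, and the other motifs, were chosen after the data were seen.

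The number of fragments limits weak sites: the smallest recovered count of a peak was 8, and a missing peak is not an absence of the protein. Replicate 4 of HA-GATA2 sets the 4 of 4 class, so counts over 4 libraries are mostly counts of its list.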

Other observations

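Of the other promoters with a summit in all 4 HA-GATA2 libraries, 5 are given here as values, chosen after they were seen and with no test. Mean percentiles here are those of summits in the promoter window, not of the whole gene as in the lists. SPTB, which encodes beta spectrin, was at a mean percentile of 30.5 with the motif 88 bp from the summit. CPOX, a heme synthesis enzyme, was at 29.6 with 2 copies of the motif, the nearer 36 bp from the summit. HK1, the hexokinase of red cells, was at 20.7 with the motif 74 bp away. CD36, a scavenger receptor, was at 59.7. The catalase gene CAT was at 4.10 and held no AGATAA. Over all 41 promoters the percentiles ran from 2.93 to 99.3, so a summit in every library did not require a high fold. A low percentile of fold was not always a low count. CAT held 49, 60, 70 and 41 fragments in replicates 1 to 4, and THG1L, at 2.93, held 33, 36, 34 and 33. The medians over all peaks of these libraries were 25, 26, 25 and 27. SPTB, at a higher percentile, held 19, 22, 25 and 18.

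At the GATA1 site 1330 bp downstream of its start, the fragments numbered 13, 24, 18 and 12 on a local background of 0.445, 0.462, 0.431 and 0.522 in HA-GATA2 replicates 1 to 4. No wild-type or GATA2-low empty-vector library had a GATA2 antibody peak there, and no HA-T354M library had an HA antibody peak.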
